A study of Mus musculus with 160 samples.

Results

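Endothelial cells hold to each other through junctions and carry a set of surface proteins by which they are recognized. Of their genes, 10 were followed here across the switch from induced hematopoietic endothelial cells (iHECs) to induced hematopoietic progenitor cells (iHPCs). These are Cdh5, Pecam1, Esam, Cldn5, Emcn, Egfl7, Ecscr, Procr, Icam2 and Cd34. The 10 genes were chosen by name as junction and surface genes, and all 10 of them were among the 23420 rows of the deposited table. The single cells numbered 160. Of these 65 were iHECs, and 21, 18 and 56 were iHPCs of culture days 14, 17 and 21, which are maturation days 3, 6 and 10. All cells came from mouse pluripotent stem cells of strain C57BL/6 in which Runx1 and Hoxa9 were expressed from a doxycycline-inducible cassette at Rosa26, and the labels do not say whether a given cell came from an embryonic or an induced stem cell line. The iHPCs had matured on OP9-DL1 cells, stroma that carries the Notch ligand DL1. The gate for iHECs was CD31+CD41lowCD45-c-kit+CD201high. Cells of days 14 and 17 were sorted as CD45+ and negative for lineage markers, those of day 21 as Ter119-CD45+c-kit+CD127+. Pecam1 encodes CD31 and Procr encodes CD201, so the level of both genes in iHECs is in part set by the sort. The gate was the same for day-14 and day-17 cells. Between iHECs and day-14 cells gate, culture day, medium and stroma all changed, since iHECs were sorted before the step on OP9-DL1 cells. Between day-17 and day-21 cells gate and culture day both changed. At either step the parts of these changes cannot be separated.

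During the endothelial to hematopoietic transition a flat cell bound to its neighbors becomes a round, free blood progenitor. VE-cadherin (Cdh5) forms the adherens junction of endothelial cells, Claudin-5 (Cldn5) seals the tight junction, and ESAM and CD31 (Pecam1) are immunoglobulin-type adhesion molecules at the same contacts. Endomucin (Emcn) and CD34 are mucin-like surface glycoproteins, ECSCR is a surface protein of endothelial cells, ICAM-2 binds a leukocyte integrin, CD201 is the receptor of protein C, and EGFL7 is a secreted factor of endothelial cells. CD34, CD31, ICAM-2 and ESAM are also known from blood stem and progenitor cells or leukocytes, and CD201 marks hematopoietic stem cells.

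The labels name no culture, animal or experiment, so each group counted as 1 sample, nothing was tested and differences were not checked in replicates. Levels are TPM values, a relative abundance of transcripts that is scaled for gene length and to a fixed total in each cell. Such values keep no read counts, so the depth of a cell is unknown. Means are of log2(TPM + 1), the SD is the spread between cells, and a difference is the later minus the earlier mean on that scale, which understates the change of low genes. A gene above 1 TPM in a cell is called detected, and an interval on a share of cells is an exact 95% binomial interval for counting error only. A gene was called lost if at least 50% of iHECs and under 25% of day-14 iHPCs had it above 1 TPM, and kept if at least 50% of both had it. The median iHEC had 4925 genes above 1 TPM, against 8198 at day 14, 8098.5 at day 17 and 6693.5 at day 21.

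The labelled cell types were checked against markers. Of 7 endothelial marker genes outside the 10, all 7 were above 1 TPM in at least 50% of iHECs, and their mean level was higher in each of the 65 iHECs (2.57 to 7.99) than in any iHPC (at most 1.53). Of 9 blood markers, 8 were above 1 TPM in at least 50% of the iHPCs of each day and 1 in at least 50% of iHECs. Cells of both kinds stood apart. In day-14 cells 4 and 17 and day-17 cell 9 the mean of the blood markers was 2.41, 1.26 and 1.08, against at least 5.13 in the other 92 iHPCs, and both day-14 cells had all 5 pluripotency markers above 1 TPM. In iHECs 31, 2 and 64 it was 4.55, 5.83 and 6.08, against at most 3.77 in the other 62. These cells were kept, and values without them stand beside the results they change.

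In 5 pairs, the labels name separate cells whose values nearly coincide. Over the 9672 genes tested below, Pearson's r of log2(TPM + 1) was 0.991 between iHECs 5 and 6, 0.985 between iHECs 24 and 25, 0.975 between iHECs 32 and 33, 0.963 between iHECs 15 and 16, and 0.985 between day-17 cells 10 and 11. No other pair exceeded 0.70 among iHECs or 0.82 at day 17. The highest pair was at 0.956 at day 14 and 0.80 at day 21, where the pairs below it came without such a gap. Whether such a pair is 1 cell sequenced more than once was not tested. With each of the 5 pairs counted once as its mean, 61, 21, 17 and 56 cells remained, all 10 genes stayed in the same class at day 14, and the mean of a gene in a group differed by at most 0.163 on the log2 scale. Values so counted stand beside the results they change, and otherwise all labelled cells are used.

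Cdh5 exceeded 1 TPM in 63 of 65 iHECs but in 0 of 95 iHPCs, and the 10 genes fell into equal groups at day 14. Cdh5, Cldn5, Emcn, Ecscr and Procr were lost (5 of 10), against 4.53% of the 4438 genes that were above 1 TPM in at least 50% of iHECs. Pecam1, Icam2, Esam, Egfl7 and Cd34 were kept (5 of 10), a smaller share than the 92.7% of those 4438 genes. In shares of cells the limits cut through no close pair. The lost gene with the highest share at day 14, Ecscr, was above 1 TPM in 23.8% of cells and the kept gene with the lowest, Esam, in 71.4%. The differences of means between day 14 and iHECs did come close, at -4.36 for kept Esam and -4.52 for lost Emcn. Their means in iHECs were 7.99 and 4.76. By means, 9 of the 10 were lower at day 14 than in iHECs by at least 2 (4-fold on this scale), against 5.63% of 9672 genes tested, and Cd34 was the gene that was not. All 10 were among the genes tested, which are those above 1 TPM in over 30 cells. The median of all genes tested differed the other way, by 0.93.

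**Figure D1:**
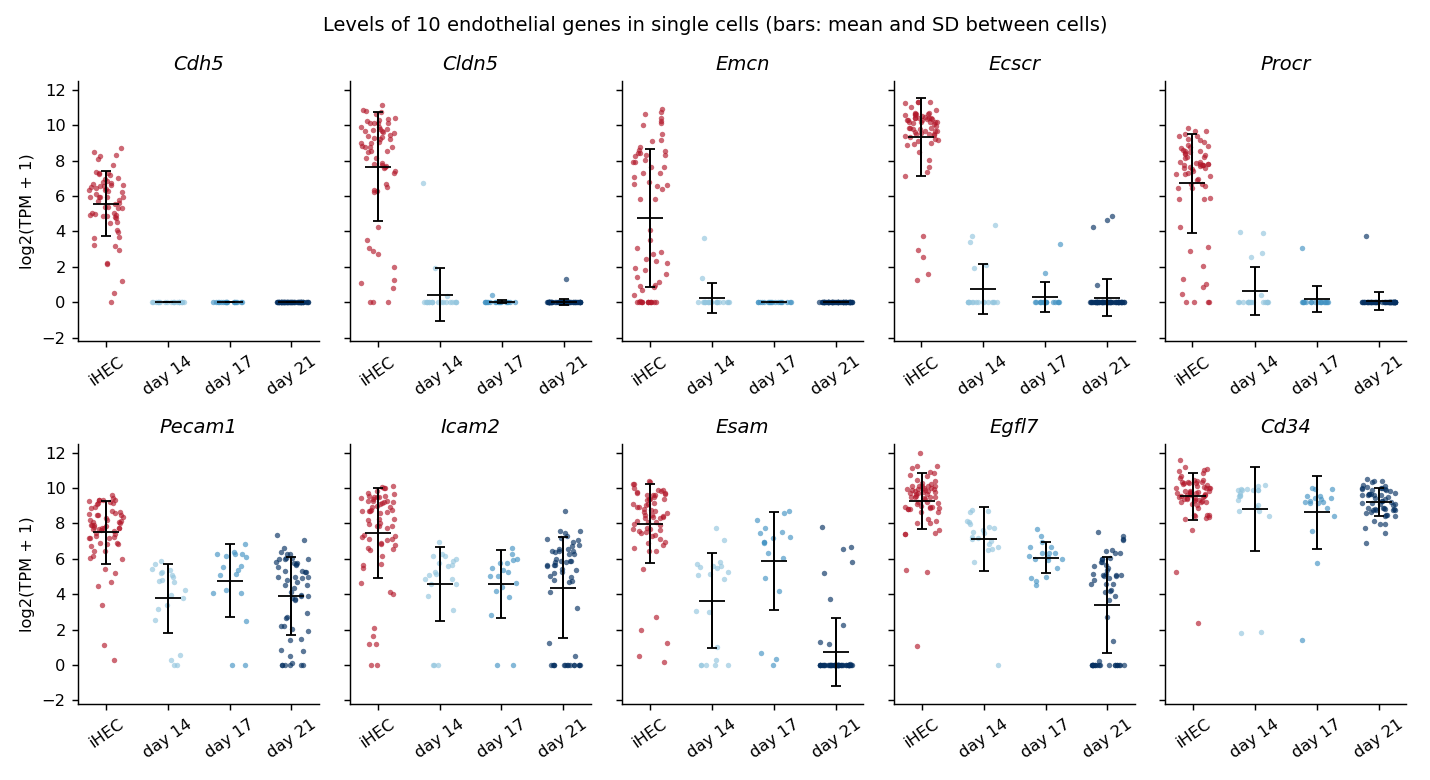
Level of each of the 10 genes in each cell (dots), as log2(TPM + 1) on the vertical axis, for 65 iHECs and 21, 18 and 56 iHPCs of days 14, 17 and 21, with the mean and the SD between cells as black bars. The 5 genes of the upper row lie at or near 0 in most iHPCs, and of the lower row Cd34 has means between 8.62 and 9.53 in all groups while Esam is near 0 in most day-21 cells.

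To show the genes at sequence level, the stretch in front of the transcription start is given for Cldn5 and Emcn, the lost genes whose levels were most alike among iHECs, for Procr, a lost gene that followed the others least, and for Cd34, which was kept. RefSeq promoter windows were found for 5 of the 10 genes, the fifth being Egfl7 with 3 windows at separate starts that TPM per gene cannot tell apart. Each line runs from 250 bases before the start to the last base before the first annotated exon (build GRCm38.p6), and capitals mark GGAA or its reverse complement TTCC, the core of the sites bound by ETS factors, a family with many endothelial members.
Cldn5, chr16:18776597-18776846, + strand: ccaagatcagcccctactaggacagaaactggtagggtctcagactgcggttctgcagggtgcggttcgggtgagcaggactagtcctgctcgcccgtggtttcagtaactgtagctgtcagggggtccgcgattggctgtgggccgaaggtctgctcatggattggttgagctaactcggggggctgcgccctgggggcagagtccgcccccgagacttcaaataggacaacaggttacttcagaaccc
Emcn, chr3:137340828-137341066, + strand: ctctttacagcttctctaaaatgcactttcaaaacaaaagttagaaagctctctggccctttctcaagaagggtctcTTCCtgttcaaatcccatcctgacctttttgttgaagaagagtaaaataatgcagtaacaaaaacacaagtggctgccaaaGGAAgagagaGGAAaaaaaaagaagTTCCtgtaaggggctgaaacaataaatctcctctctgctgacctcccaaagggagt
Procr, chr2:155750967-155751116, + strand: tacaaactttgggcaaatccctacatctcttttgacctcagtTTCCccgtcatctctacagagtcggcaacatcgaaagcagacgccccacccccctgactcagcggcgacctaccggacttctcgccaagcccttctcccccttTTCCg
Cd34, chr1:194938571-194938818, + strand: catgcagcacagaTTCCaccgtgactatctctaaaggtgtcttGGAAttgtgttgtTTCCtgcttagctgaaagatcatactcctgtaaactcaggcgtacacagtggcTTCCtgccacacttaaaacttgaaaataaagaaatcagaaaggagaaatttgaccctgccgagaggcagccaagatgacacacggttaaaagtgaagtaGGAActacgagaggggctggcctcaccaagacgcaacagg
Over the 250 bases, with both strands read and overlaps counted, the core was present 0 times for Cldn5, 4 times for Emcn, 3 times for Procr and 5 times for Cd34. The median over 32851 windows was 3, and 93.4% of them held it at least once, so its presence sets none of these genes apart. TGTGGT, a core of the sites bound by RUNX factors, was in none of the 7 windows of the 5 genes and in 14% of all windows. A match of letters is a description and not a site.

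Cdh5 lies on chromosome 8 (104101625-104144511, + strand, GRCm38) and overlaps an antisense gene, Gm29682, whose reads cannot be told apart from it, since the use of strand in counting is not stated. In iHECs Cdh5 ranged from 0 to 427 TPM with a median of 61.1, and in the other 3 groups every cell was listed at 0. The mean in iHECs was 5.57 ± 1.83 (SD, 65 cells), the second lowest of the 10 genes. No fold is given against groups listed at 0. With 3 cells of the total taken as the limit, 0 of 21, 18 and 56 cells allows shares of up to 14.3%, 16.7% and 5.36%, and the upper ends of the exact 95% intervals are 16.1%, 18.5% and 6.38%. Cdh5 was the only one of the 10 genes that no iHPC of any day had above 1 TPM.

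Cldn5 (chromosome 16, 18776847-18778262, + strand) exceeded 1 TPM in 61 of 65 iHECs, or 93.8%, with a 95% interval from 85.0 to 98.3. Its values ran from 0 over a median of 439 to 2248 TPM, and its spread between iHECs (SD 3.10) was the largest after that of Emcn. At day 14 the lowest and the median value were 0 and the highest was 106 TPM, with 2 of 21 cells above 1 TPM. The cell at 106 TPM, day-14 cell 15, had 3102 genes above 1 TPM, the fewest of its group, and the other was day-14 cell 17, one of the cells with low blood markers. None of 18 cells at day 17 and 1 of 56 at day 21, at 1.48 TPM, was above 1 TPM. The mean was 7.67 in iHECs and 0.43 ± 1.51 at day 14, a difference of -7.24 against an average SD of 2.44.

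Emcn (chromosome 3, 137341067-137432185, + strand) was the gene that iHECs lacked most often. It was above 1 TPM in 46 of 65 iHECs (70.8%, 58.2 to 81.4), with a range of 0 to 1926 TPM and a median of 55.6. The upper quartile was 314 TPM and the lower 0.784 TPM. With the pairs of near-identical iHECs counted once the share was 43 of 61 and the median was 15.998 TPM. At day 14 the lowest and the median value were 0, and 2 of 21 cells were above 1 TPM, at 1.63 and 11.5 TPM. At days 17 and 21 every cell was listed at 0. Its mean was 4.76 ± 3.88 in iHECs and 0.24 ± 0.84 at day 14.

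Ecscr lies on chromosome 18 (35713086-35722356, - strand) within an overlapping gene of the other strand, 1700066B19Rik, whose own mean was at most 0.91 in any group. Ecscr was above 1 TPM in all 65 iHECs, from 1.37 over a median of 1009 to 2587 TPM, the highest median of the 10 genes. At day 14 the lowest and the median value were 0 and the highest was 19.6 TPM, with 5 of 21 cells above 1 TPM. The share was 2 of 18 at day 17 (highest value 8.78 TPM) and 3 of 56 at day 21 (highest value 28.2 TPM). The difference between day 14 and iHECs, -8.59 with an average SD of 1.86, was the largest of the 10 genes, and 60 of 65 iHECs were above the highest day-14 cell. Of the 7 Ecscr-positive cells at days 14 and 17, 2 were cells with low blood markers, and without the 3 such cells the counts were 4 of 19 and 1 of 17.

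Procr (chromosome 2, 155751117-155755471, + strand) was above 1 TPM in 59 of 65 iHECs (90.8%, 81.0 to 96.5), although these cells were sorted as CD201high. Its values ran from 0 over a median of 211 to 934 TPM, and 4 iHECs were listed at 0. At day 14 the lowest and the median value were 0 and the highest was 14.7 TPM, with 4 of 21 cells above 1 TPM. At day 17 it was 1 of 18 cells, at 7.40 TPM, and at day 21 it was 1 of 56, at 12.57 TPM. Its mean of 6.72 ± 2.81 among iHECs compared with 0.65 ± 1.35 at day 14 and 0.07 ± 0.50 at day 21. No iHPC reached the lower quartile of the iHECs, 88.1 TPM.

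The lost genes were seldom together in the iHPCs that still had one. None of the 5 was above 1 TPM in 12 of 21 cells at day 14, 15 of 18 at day 17 and 51 of 56 at day 21. Of the remaining day-14 cells, 6 had 1 of the 5, 2 had 2 and 1 had 3. That last one, day-14 cell 21, had Emcn at 1.63, Ecscr at 9.61 and Procr at 14.1 TPM, with blood markers at 7.23 and the 7 other endothelial markers at 0.69, inside the range of the other iHPCs. At days 17 and 21 no cell had more than 1 of the 5.

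**Figure D2:**
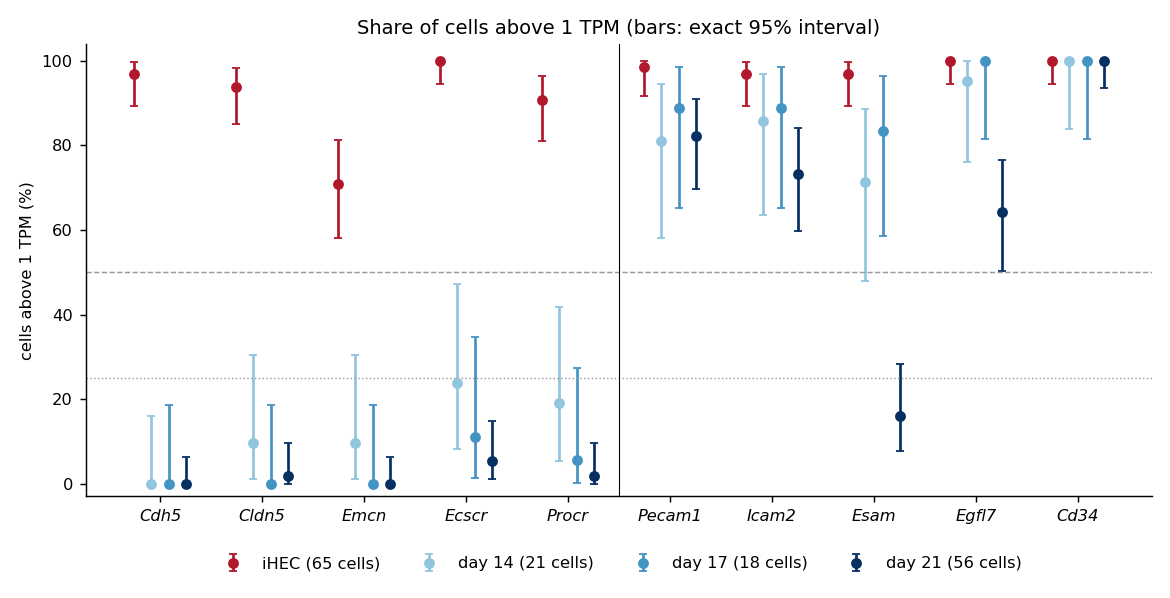
Share of cells above 1 TPM (vertical axis, percent) for each of the 10 genes in each group, with exact 95% intervals for counting error. The dashed and dotted lines mark the limits of 50% and 25%, the lost genes stand left of the vertical line, and Esam is at 83.3% at day 17 and 16.1% at day 21.

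Pecam1 (chromosome 11, 106654217-106750628, - strand) remained detected in most cells at a lower level. In iHECs it ranged from 0.231 over a median of 224 to 767 TPM, and 64 of 65 were above 1 TPM. The lowest, median and highest values were 0, 25.1 and 58.1 TPM at day 14, 0, 42.5 and 114 TPM at day 17, and 0, 21.9 and 161 TPM at day 21. The shares above 1 TPM were 17 of 21 (81.0%), 16 of 18 (88.9%) and 46 of 56 (82.1%). No cell of day 14 or day 17 reached the lower quartile of the iHECs, 119 TPM, and 2 of 56 cells of day 21 did. The mean was 7.49 ± 1.77 in iHECs and 3.76 ± 1.96 at day 14, a difference of -3.73 (-3.37 without the cells with low blood markers). The later differences, 1.0 and -0.89, were smaller than the average SD between cells of 2.0 and 2.13.

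Icam2 (chromosome 11, 106377656-106388075, - strand) was also kept at a lower level, and lies close to Pecam1 on the same chromosome. It ranged from 0 over a median of 297 to 1111 TPM in iHECs, 63 of 65 of which were above 1 TPM. The lowest, median and highest values were 0, 34.8 and 122 TPM at day 14, 0, 34.3 and 96.8 TPM at day 17, and 0, 48.1 and 408 TPM at day 21. The shares were 18 of 21 (85.7%), 16 of 18 (88.9%) and 41 of 56 (73.2%). Its mean differed by -2.90 between iHECs and day 14 and by 0.01 and -0.22 at the later steps. Relative to the median of all genes tested these were -3.83, -0.26 and 0.52, so the sign of both later values depends on the scale, and that of the first also on the cells with low blood markers (-0.20 without them). At day 21, 14 of 56 cells were listed at 0 and 9 were above the lower quartile of the iHECs, 107 TPM.

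Esam (chromosome 9, 37528078-37538319, + strand) was kept at days 14 and 17 and was absent from most cells of day 21. In iHECs it ranged from 0.118 over a median of 349 to 1368 TPM, with 63 of 65 above 1 TPM. The lowest, median and highest values were 0, 33.4 and 215 TPM at day 14, 0, 122 and 416 TPM at day 17, and 0, 0 and 218 TPM at day 21. At day 17, 4 of 18 cells were above the lower quartile of the iHECs, 184 TPM, and 2 above their median. Those 2 are the near-identical cells 10 and 11, at 416 and 385 TPM, and with each pair counted once 4 of 17 were above the lower quartile and 1 above the median. The shares above 1 TPM were 15 of 21 (71.4%, 47.8 to 88.7), 15 of 18 (83.3%, 58.6 to 96.4) and 9 of 56 (16.1%, 7.62 to 28.3). The iHEC mean of 7.99 was followed by 3.63 ± 2.70, 5.88 ± 2.79 and 0.72 ± 1.92 on the 3 later days.

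Esam was the 1 gene of the 10 that was higher at day 17 than at day 14 by at least 2, at 2.25, where 2.76% of all genes tested were. The difference was below the average SD between cells of 2.75, and it was 1.97 relative to the median of all genes, 2.17 without the cells with low blood markers and 2.09 with near-identical pairs counted once. From day 17 to day 21 Esam and Egfl7 were the 2 of 10 that were lower by at least 2, where 7.76% of all genes were. The difference of Esam, -5.15, was more than the average SD of 2.39. The 9 Esam-positive cells of day 21 ran from 1.26 to 218 TPM, and 5 of them were above 30 TPM, at 36, 55.9, 92.3, 102 and 218 TPM. Day-21 cells also differed in mast cell markers, of which 5 of 7 were above 1 TPM in at least 50% of cells, and the mean of the 7 ran from 1.22 to 10.6 at day 21 against at most 1.02 at day 17. At day 21 Gata2, 1 of the 7 markers, was above 1 TPM in 34 cells and not in 22. Esam was above 1 TPM in 5 of those 34 and 4 of those 22, and Egfl7 in 21 and 15. The part of mast cell markers in the lower Esam and Egfl7 of day 21 was not tested. Judged over all 95 iHPCs Esam was above 1 TPM in 39 (41.1%), under the limit for a kept gene.

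Egfl7 (chromosome 2, 26580014-26593120, + strand) had a lower mean at each later day. All 65 iHECs were above 1 TPM, from 1.09 over a median of 735 to 4045 TPM, the highest value of any of the 10 genes in a cell. The lowest, median and highest values were 0, 173 and 428 TPM at day 14, 22, 68.6 and 201 TPM at day 17, and 0, 22.8 and 180 TPM at day 21. The shares were 20 of 21, 18 of 18 and 36 of 56 (64.3%, 50.4 to 76.6). No iHPC of any day reached the lower quartile of the iHECs, 464 TPM. The means were 9.27 ± 1.58, 7.10 ± 1.80, 6.06 ± 0.87 and 3.38 ± 2.73, with differences of -2.17, -1.04 and -2.67 (-3.09, -1.32 and -1.94 relative to the median of all genes). The gene overlaps Agpat2 on the other strand by a short stretch at its end, and the mean of Agpat2 went the opposite way, 1.41 in iHECs and 4.80 at day 14. Egfl7 also overlaps Gm20532, a protein-coding gene of the same strand that has no row among the deposited values. The 3 cells with low blood markers had 88.5, 130 and 79.3 TPM of Egfl7, inside the range of their groups.

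Cd34 (chromosome 1, 194938819-194961279, + strand) was above 1 TPM in all 160 cells and was the highest of the 10 genes by mean in every group. An antisense gene, Gm16897, overlaps it and had a mean of at most 1.16 in any group. Cd34 ranged from 4.10 over a median of 845 to 3053 TPM in iHECs. The lowest, median and highest values were 2.55, 776 and 1140 TPM at day 14, 1.69, 598 and 1011 TPM at day 17, and 118, 600.5 and 1471 TPM at day 21. The groups overlapped, and 9 of 21 cells of day 14 lay above the median of the iHECs. The values under 3 TPM were those of the 3 cells with low blood markers. With all cells the mean was 9.53 in iHECs and 8.80 at day 14, a difference of -0.73 that was smaller than the average SD of 1.92, and without those cells the difference was 0.0015.

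Among the 5 lost genes the order of the means in iHECs was Ecscr (9.33), Cldn5 (7.67), Procr (6.72), Cdh5 (5.57) and Emcn (4.76), and among the 5 kept genes it was Cd34 (9.53), Egfl7 (9.27), Esam (7.99), Pecam1 (7.49) and Icam2 (7.46). Neighbors in the joint order were at most 1.28 apart on this scale, less than the SD between cells of either gene. The 3 lowest means in iHECs, those of Procr, Cdh5 and Emcn, were all of lost genes. At day 14 the gap between the groups was 2.89, from Esam at 3.63 to Ecscr at 0.74. At day 21 Esam, at 0.72, stood nearer to Ecscr (0.26) than to the next kept gene, Egfl7 (3.38).

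The iHECs differed among themselves in how much of the set they carried. The mean over the 10 genes was 7.58 ± 1.28 (SD, 65 cells) and ran from 2.20 to 9.25, against 2.99 ± 0.84 at day 14, 3.04 ± 0.70 at day 17 and 2.19 ± 0.63 at day 21. All 10 genes were above 1 TPM in 40 of 65 iHECs, 9 in 17, 8 in 7 and 5 in 1, and with near-identical pairs counted once all 10 were in 37 of 61. Of the 17 cells that lacked a single gene, 13 lacked Emcn, 3 Procr and 1 Cldn5. Ecscr, Egfl7 and Cd34 were lacking in none. The spread between iHECs was widest for Emcn (SD 3.88), Cldn5 (3.10) and Procr (2.81), all of them lost genes. It was narrowest for Cd34 (1.31) and Egfl7 (1.58), both kept. In between, the classes were mixed. The kept genes Icam2 (2.54) and Esam (2.24) were wider than the lost genes Ecscr (2.21) and Cdh5 (1.83), and Cdh5 was next to the kept Pecam1 (1.77).

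The 3 iHECs with the lowest means over the 10 genes were the 3 with the highest blood markers. These were iHEC 31 (2.20), iHEC 2 (3.96) and iHEC 64 (5.33), and the next lowest iHEC was at 5.70. In iHEC 31 Esam was at 0.411, Pecam1 at 0.231, Cldn5, Emcn and Icam2 at 0 and Egfl7 at 1.09 TPM. The same cell had Procr at 153 and Cd34 at 679 TPM, within the ranges of the other iHECs. In iHEC 64 Cdh5 was at 0.438 and Icam2 at 0 TPM, with Procr at 367 and Cd34 at 1320 TPM, and its Ptprc, which encodes CD45, was at 53.9 TPM although the gate was CD45-. Ptprc was above 1 TPM in 1.54% of iHECs, which is that cell. Without the 3 cells the SD of the mean over the 10 genes was 0.95 in place of 1.28.

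**Figure D3:**
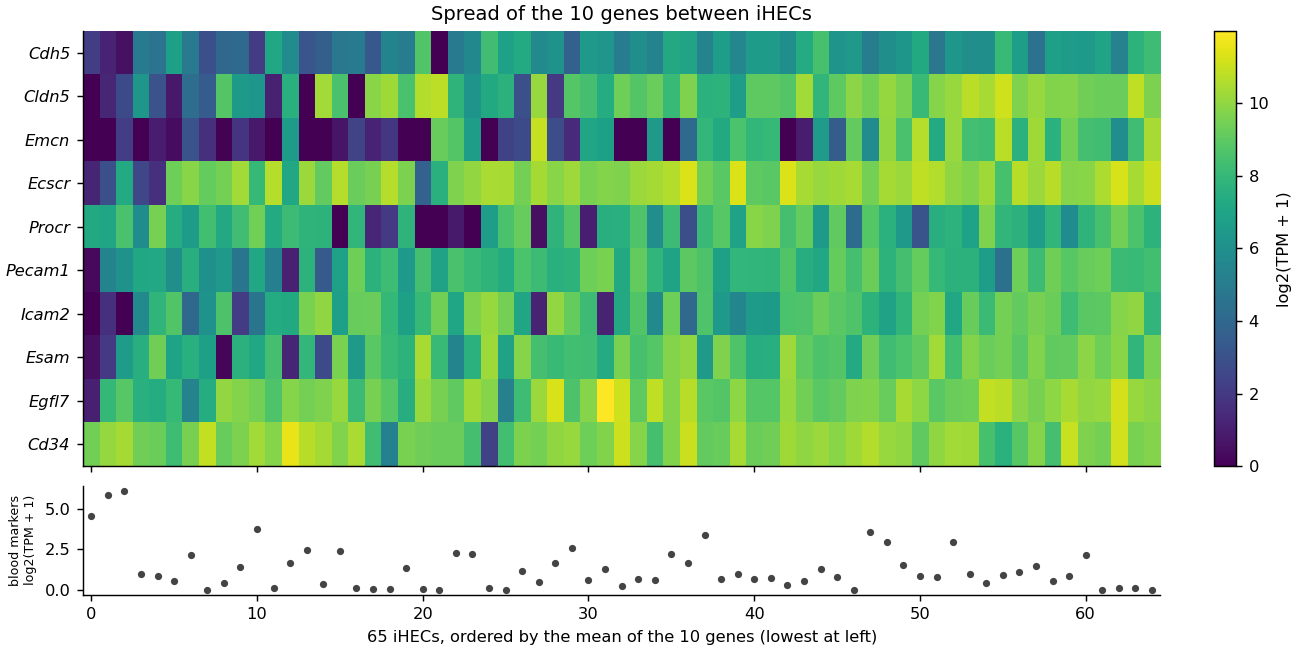
Upper panel, log2(TPM + 1) of the 10 genes (rows) in the 65 iHECs (columns), ordered by the mean of the 10 genes, and lower panel, the mean of 9 blood markers in the same cells on the same scale. The 3 cells at the left have the highest blood markers, at 4.55 to 6.08, with Procr at 137 to 367 TPM and Cd34 at 679 to 1320 TPM.

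Within iHECs most of the 10 genes varied together weakly. Over the 65 cells, Spearman's rho of the 45 pairs had a median of 0.23 (-0.23 to 0.47), and 35 pairs were positive. The highest was Cldn5 with Emcn (0.47), followed by Esam with Ecscr (0.45) and Cdh5 with Esam (0.43). All 28 pairs without Procr and Cd34 were positive, with a median of 0.30. Pairs with Procr had a median of -0.09 and pairs with Cd34 of -0.01, and the lowest pair of all was Cdh5 with Cd34 (-0.23). The values share library and total within each cell and are given as a description. Without the 3 iHECs with high blood markers the median of the 45 pairs was 0.14 and that of the 28 was 0.23.

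**Figure D4:**
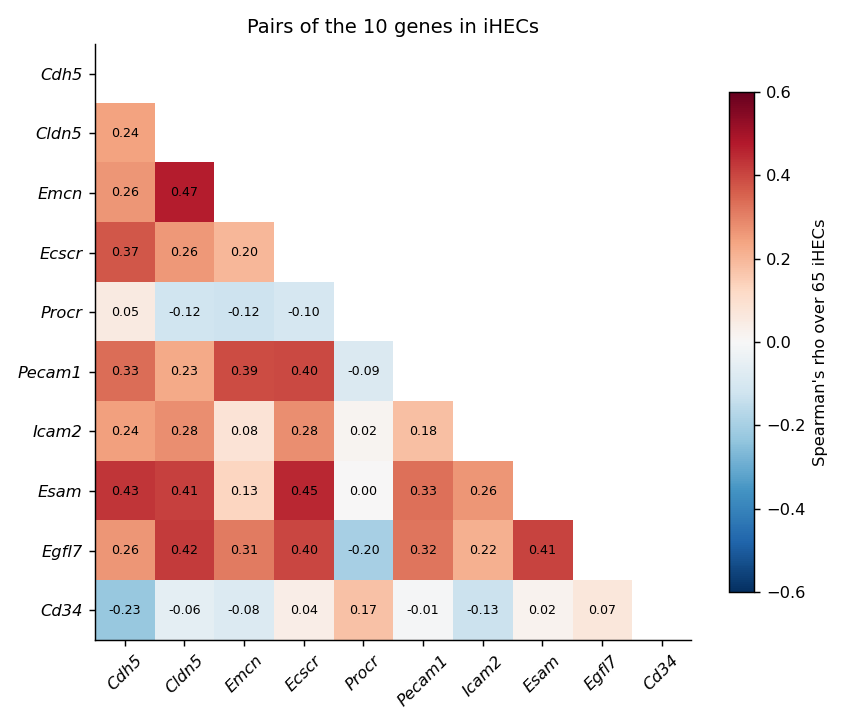
Spearman's rho over 65 iHECs for each of the 45 pairs of the 10 genes, on a color scale from -0.6 (blue) to 0.6 (red). The 17 pairs with Procr or Cd34 lie between -0.23 and 0.17, and the other 28 pairs between 0.08 and 0.47.

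The mean over the 10 genes followed other endothelial markers. Its rho with the mean of the 7 endothelial markers outside the set was 0.66 over the 65 iHECs and 0.62 without the 3 cells with high blood markers. With the number of genes above 1 TPM it was 0.28, with Itga2b, which encodes CD41, -0.31, and with Sfpi1, which encodes the blood factor PU.1, -0.36 (-0.26 without the 3 cells). With the mean of the 9 blood markers it was -0.15, and -0.02 without the 3 cells. Taken singly, Procr and Cd34 had a rho of 0.06 and 0.02 with the mean of the 7 endothelial markers over the 65 iHECs. Procr had a rho of 0.36 with Runx1 and 0.29 with Hoxa9, where the mean over the 10 genes had 0.02 and 0.21. Whether the levels of Runx1 and Hoxa9 include the inducible copies was not tested. The genes whose level was most like the mean over the 10 genes across iHECs by Pearson's r, among 9495 genes, were Mest (0.70), Plvap (0.69), Sparc (0.68), S1pr1 (0.66) and Col4a2 (0.62), followed by Acvrl1, Snrk, Flt1, Nrarp and Pea15a (0.61 to 0.56). Without the 3 cells with high blood markers Mest, Col4a2, Snrk, Nrarp and Pea15a were no longer among the first 10, and the order was Cd82 (0.61), Flt1, Acvrl1, Plvap (0.58), Cd93, Igf2, Actg1, Sparc, S1pr1 and Vcpip1 (0.54). Across all 160 cells they were Ptrf (0.93), Plvap (0.93), Gng11 (0.92), Igf2, Rhoj, Efna1, Sparc, Col4a2, Ramp2 and S1pr1 (down to 0.90), values that contain the difference between iHECs and iHPCs.

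Among the 95 iHPCs the kept genes had separate neighbors. Esam was most like Mef2c (r 0.70), B4galt4 (0.68), Mmd (0.67), Themis2 (0.63) and Bcl3 (0.62), and the first 3 remained without the 3 cells with low blood markers. Mef2c had a mean of 4.05 at day 14, 4.27 at day 17 and 0.80 at day 21, and B4galt4 4.17, 5.06 and 0.49, so that part of the likeness is the low level at day 21. Pecam1 was most like Nelfcd (0.64), Gpr97, Rftn1, Gpr56 and Klhl18 (0.59), and Icam2 was like Slc25a1 (0.58), Cnpy3, Sharpin and Aes (0.54). Cd34 was most like Rac2 (0.85), Coro1a, Samsn1, Cd47 and Arhgdib (0.79), and none of these was among its first 5 without the 3 cells, where the highest was Lrrc33 (0.53). Pecam1 and Icam2 had a rho of 0.66 over the 21 cells of day 14, 0.15 over the 18 of day 17 and -0.00084 over the 56 of day 21.

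Of 31 other genes of endothelial and epithelial junctions, 17 were above 1 TPM in at least 50% of iHECs. Of these 6 were lost at day 14 and 11 kept, where 4.53% of all such genes were lost and 92.7% kept. Lost were Ptprb, a phosphatase that acts on VE-cadherin, Tjp1 (ZO-1), Mllt4 (afadin), Magi1, Rasip1 and Amotl1. Kept were the catenins Ctnnb1, Ctnna1, Ctnnd1 and Jup, which link cadherins to the cytoskeleton, and Cgnl1, F11r, Jam3, Pvrl2, Gja1, Krit1 and Vcl. By means 11 of the 20 tested were lower at day 14 than in iHECs by at least 2, against 5.63% of all genes tested, and 0 higher, with a median of -2.18. The largest differences were F11r, which encodes JAM-A (-6.29, from a mean of 8.88 to 2.59), Tjp1 (-3.27), Ctnna1 (-3.26) and Amotl1 (-3.13). Rapgef1, an exchange factor for the small GTPase Rap1, was highest on the other side (1.70, from 0.50 to 2.19). Ctnnb1, the partner of VE-cadherin in the adherens junction, was above 1 TPM in 21 of 21 cells of day 14 at a median of 103 TPM, against 394 in iHECs.

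Of 48 other surface genes of endothelium, 31 were above 1 TPM in at least 50% of iHECs, and 21 of these were lost at day 14, 9 kept and 1, Flt1, in between, beside the 4.53% and 92.7% of all such genes. By means 27 of 33 tested were lower by at least 2, against 5.63% of all genes tested, and 0 higher, with a median of -4.22. The largest differences were Gpihbp1 (-7.96, listed at 0 in every iHPC), Plvap (-7.34), F2r (-6.44) and Cd59a (-6.33). The growth factor receptors Kdr, Tek and Flt4 were lost, with 1, 0 and 0 of 21 cells above 1 TPM, as were Cd93 and Clec14a. Eng, S1pr1, Calcrl, Ramp2 and F2r were kept. These classes hold for day 14 only. At day 21 the shares of cells above 1 TPM were 16.1% for Eng, 8.93% for S1pr1 and 10.7% for Calcrl. They were 0% for Ramp2 and 46.4% for F2r. Cd93, lost at day 14, was above 1 TPM in 44.4% of cells at day 17 and 28.6% at day 21. The highest difference on the other side was Ly6a (1.75), which encodes Sca-1 and belongs to the Ly6 gene family. Whether it shares reads with related genes was not tested. These lists were drawn up with earlier results of the same cells known.

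**Figure D5:**
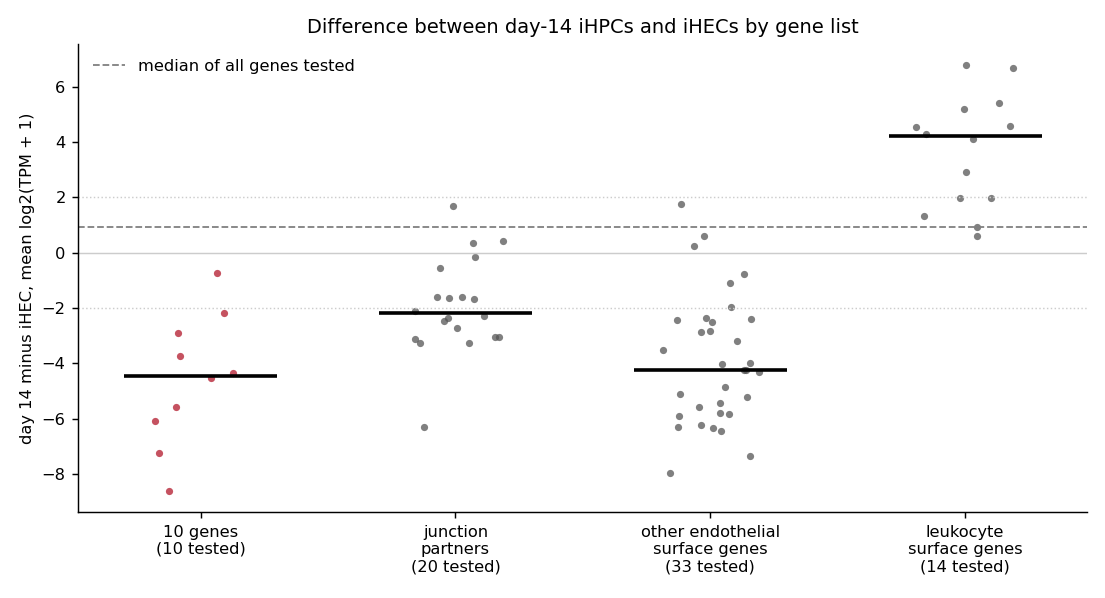
Difference of mean log2(TPM + 1) between day-14 iHPCs and iHECs (vertical axis) for each gene tested of 4 lists (dots), with the median of each list as a black bar, the median of all genes tested (0.93) as a dashed line and differences of 2 and -2 as dotted lines. The 10 genes lie between -8.59 and -0.73, with a median of -4.44, and the leukocyte surface genes between 0.59 and 6.77. Of these 9 of 14 were higher by at least 2, against 25.7% of all genes tested.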

How the data were processed

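Single cells were sorted, their polyadenylated RNA was amplified with the Discover-sc WTA Kit V2 and sequencing libraries followed the TruePrep V2 protocol. The authors aligned reads to mm10 with HISAT2 (version 2.1.0) and estimated the deposited TPM values with StringTie (version 1.3.4). Whether molecules were tagged before amplification, and whether strand was used, are not given in the sources used here. All 160 columns of the table were matched to a labelled cell by title, and 4 rows that shared a name with another were left out.

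All means and differences are of log2(TPM + 1), a pseudocount of 1, and were computed with Python 3.11.15, pandas 2.3.3, NumPy 2.4.6 and SciPy 1.17.1. Genes above 1 TPM in more than 30 cells (9672) entered the comparisons. Depth is unknown, so precision rests on the number of cells. With 1 sample per group no p-value was computed. Every cell was used. Doublets were not called, as a library is 1 sorted cell.

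The 10 genes, the other lists and the limits were chosen with earlier results of these data known. The text names the 10 genes, the genes of largest difference in each list, the 10 genes most like the mean of the 10 over all cells and over iHECs, and the 5 most like Esam, Cd34, Pecam1 and Icam2 over iHPCs, of which 1 is not reported here. Other genes of the lists are named by the class they fell in. Positions are from GENCODE M21 on GRCm38, the assembly behind mm10. The scripts were tested on simulated data. Alternatives were other detection limits, pseudocounts, scaling by size factors, medians in place of means, other limits for lost and kept, and leaving out cells with under 4000 genes above 1 TPM. Leaving out the cells with low or high blood markers, and counting once the pairs of cells with Pearson's r of at least 0.96, were additions made once the data were seen.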

Additional observations from a re-analysis of the deposited data

How the results depend on the processing

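The lost and kept groups rest on 21 cells of day 14 and on 1 sample per group, and the depth of a cell is unknown. Lost genes numbered 5 with a detection limit of 0, 5 or 10 TPM, with size factors, over all 95 iHPCs, without the 3 iHPCs with low blood markers and with near-identical pairs of cells counted once. With lost defined as under 10% of day-14 cells they numbered 3, Cdh5, Cldn5 and Emcn. Without the 17 iHECs, 1 day-14 cell and 2 day-21 cells with under 4000 genes above 1 TPM they numbered 4, since Ecscr was then in 25% of cells. Kept genes numbered 4 over all iHPCs, where Esam was in between.

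The mean difference of the 10 genes between day 14 and iHECs was -4.59. It was -6.08 with a pseudocount of 0.1 and -3.07 with a pseudocount of 10. With a pseudocount of 10, and without cells of few genes, 8 of the 10 were lower by at least 2 in place of 9, and Egfl7 stood at -1.998 and -1.71. The mean difference between days 21 and 17 was -0.85, and -0.11 relative to the median of all genes. That between days 17 and 14 was 0.05, and it was below 0 under 4 of the alternatives, the lowest being -0.23. The median rho of the 45 pairs in iHECs was 0.14 without the 3 iHECs with high blood markers, in place of 0.23. The cause of these shifts was not tested, apart from those that a changed limit makes by itself. Of 280 shares of cells recomputed for single genes 12 moved out of their interval, and of 240 differences 14 moved by more than the SD between cells. None of the 96 recomputed from a difference of at least 2 changed sign, whereas 16 of the 144 from a smaller one did, most of them Icam2 or Ecscr. The others were Procr (-0.10 between days 21 and 17, 0.63 relative to the median of all genes), Cldn5 at the same step and Cd34 at the first 2 steps. No paired analysis was possible because cells of different groups share only a running number and no test was run.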

Other observations

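Surface genes of leukocytes differed in the opposite direction at the same step. Of 15 listed, 14 were among the genes tested, and 9 of them were higher at day 14 than in iHECs by at least 2, against 25.7% of all genes tested, and 0 lower. Their median difference was 4.20, where that of all genes tested was 0.93. The largest were Ly6e (6.77), Fcer1g (6.68), a signaling chain of Fc receptors, Cd52 (5.40) and Selplg (5.19), the ligand of selectins. Ptprc exceeded 1 TPM in 1.54% of iHECs but in 90.5% of the cells of day 14, which were sorted for the CD45 protein that it encodes.

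Ly6a was above 1 TPM in 2 of 65 iHECs, 9 of 21 cells of day 14, 16 of 18 of day 17 and 50 of 56 of day 21, and its mean was higher at day 17 than at day 14 by 5.12. Cgnl1, a protein of cell junctions, was the junction partner that was higher at day 17 than at day 14 by at least 2, at 2.80, and Gja1, a connexin, the one that was lower at day 21 than at day 17, by -2.57. It was above 1 TPM in 66.7% of cells at day 17 and 3.57% at day 21. These 3 genes were chosen after their values had been seen.

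Of 9 stromal or feeder markers, 7 were above 1 TPM in no iHEC. On each of days 14, 17 and 21, 4 were above 1 TPM in no cell, though not the same 4 every day. The mean of the 9 was at most 0.60 in any iHEC and 1.49 in any iHPC. At days 17 and 21, 1 of the 9 was above 1 TPM in at least 50% of cells. Pdgfrb, which is on this list, had a mean of 0 in iHECs and of 1.60, 4.96 and 3.07 at days 14, 17 and 21. Of 4 markers of lymphatic endothelium, Lyve1 (66.2%) and Flt4 (90.8%) were above 1 TPM in at least 50% of iHECs. Pdpn was above 1 TPM in 0 of 65 iHECs, and Prox1 had a mean of 0.20 in them. The mean of the 4 reached 5.19 in iHECs. The mean of 5 mural cell markers was at most 1.07 in iHECs and reached 2.93 in day-17 cell 9, and 2 of the 5 were above 1 TPM in at least 50% of day-17 cells. The mean of 7 erythroid markers was at most 1.14 in any cell. The mean of 7 megakaryocyte markers, which include Itga2b, ran up to 4.65 in iHECs and 2.38 at day 14, with medians of 0.35 and 0.29.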
